A study of Mus musculus with 20 samples.

Results

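The genes described here are 10 neuronal genes whose transcription is known to follow synaptic activity: Arc, Npas4, Nr4a1, Nr4a2, Nr4a3, Bdnf, Homer1, Ier2, Nptx2 and Dusp1. They were chosen by name and are 10 of the 21627 protein-coding RefSeq genes on chromosomes 1 to 19 and X. Their chromatin was read from CUT&RUN, in which a nuclease tethered to an antibody releases the DNA around the antibody's target for sequencing. Nuclei were sorted from whole brain of mice aged 8 weeks and labelled excitatory or inhibitory neuron. All mice carried the genotype Sun1 f/f | Emx1Cre (+), in both classes. Emx1 drives Cre in the lineage of the dorsal forebrain, which limits which excitatory neurons such a line marks, and the labels do not describe the sort gate. The antibodies were against EGR1, H3K4me3, H3K27ac, H3K4me1 and H3K27me3, with 2 libraries labelled excitatory and 2 labelled inhibitory for each, 20 in all. Whether paired libraries of a class stem from different animals is not stated, so p-values measure only the spread between libraries, which may be technical.

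Neuronal activity opens calcium channels and activates kinases, and these act on CREB, SRF and MEF2 proteins already bound near the genes of a first wave of transcription. Some products of that wave are transcription factors, EGR1 itself among them, and others are effectors that act at synapses or switch the signal off. H3K4me3 marks active or poised gene starts, H3K27ac marks active starts and enhancers, H3K4me1 marks enhancers more widely, and H3K27me3 is laid down by Polycomb and goes with silent genes. The members fall into 4 groups by role. Npas4, a calcium-induced bHLH-PAS factor, and the orphan nuclear receptors Nr4a1, Nr4a2 and Nr4a3 are transcription factors. Bdnf, a neurotrophin, and Nptx2, a pentraxin that gathers AMPA receptors, are secreted. Arc, which promotes the removal of AMPA receptors from synapses, and Homer1, a scaffold that binds metabotropic glutamate receptors, act at the postsynapse. Dusp1, a phosphatase that inactivates MAP kinases, and Ier2, an immediate early nuclear protein, are the remaining members.

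The RefSeq promoter sequences of 7 of the 10 members could be read, 14 promoters in all. Each promoter spans 250 bases before and 50 bases after a transcription start on GRCm38.p6, the assembly also called mm10. The core of the cyclic-AMP response element bound by CREB, TGACG on either strand, was present in at least 1 promoter of all 7 members. It lay in 7 of the 14 member promoters (50%), against 20.8% of all 32851 promoters in the table. A full element, TGACGTCA, lay only in the Dusp1 promoter (1.79% of all promoters), and contains the core by construction. The EGR motif GCGNGGGCG lay in the promoters of Nr4a1 and Nr4a2 (5.55% of all promoters). TATAAA lay only in the Nr4a2 promoter (13.6% of all promoters). The NR4A site AAAGGTCA, the CArG box of SRF and the MEF2 element were found in none of the 14. They are rare in all promoters too, at 1.51%, 1.63% and 0.557%. The 250 bases upstream of 6 starts are printed. They are 5 of the 6 starts with an EGR1 peak in all 4 libraries, and 1 Bdnf start. At that Bdnf start an EGR1 peak touched the promoter only in libraries labelled excitatory. The same held at the Bdnf start at 109677032, which is not printed. Capitals mark TGACG and GCGNGGGCG on either strand. The positions are chr19:4989972-4990221, minus strand, for Npas4; chr15:101266596-101266845, plus strand, for Nr4a1; chr2:57124004-57124253, minus strand, for Nr4a2; chr2:109692186-109692435, plus strand, for the Bdnf start at 109692436, 1 of 7; chr13:93303507-93303756, plus strand, for the first Homer1 start; and chr17:26508473-26508722, minus strand, for Dusp1.
Npas4: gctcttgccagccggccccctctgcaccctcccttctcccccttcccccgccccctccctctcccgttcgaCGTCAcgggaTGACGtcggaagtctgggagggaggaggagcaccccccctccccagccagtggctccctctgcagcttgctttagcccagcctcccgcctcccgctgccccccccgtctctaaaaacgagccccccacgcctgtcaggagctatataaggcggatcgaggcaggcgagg
Nr4a1: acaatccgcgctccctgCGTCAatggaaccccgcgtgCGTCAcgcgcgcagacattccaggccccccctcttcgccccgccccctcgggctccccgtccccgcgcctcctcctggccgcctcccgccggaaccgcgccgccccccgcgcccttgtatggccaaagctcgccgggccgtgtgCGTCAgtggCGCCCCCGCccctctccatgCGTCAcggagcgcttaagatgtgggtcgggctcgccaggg
Nr4a2: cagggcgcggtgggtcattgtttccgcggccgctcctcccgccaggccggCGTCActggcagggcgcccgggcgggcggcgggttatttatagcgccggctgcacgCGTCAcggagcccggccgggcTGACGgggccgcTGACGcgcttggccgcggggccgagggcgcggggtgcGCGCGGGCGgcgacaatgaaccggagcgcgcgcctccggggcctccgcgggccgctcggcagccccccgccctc
Bdnf: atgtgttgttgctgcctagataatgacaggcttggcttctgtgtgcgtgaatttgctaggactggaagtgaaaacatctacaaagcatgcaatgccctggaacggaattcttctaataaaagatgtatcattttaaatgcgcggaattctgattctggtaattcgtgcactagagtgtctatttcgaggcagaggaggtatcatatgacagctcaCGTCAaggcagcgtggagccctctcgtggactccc
Homer1: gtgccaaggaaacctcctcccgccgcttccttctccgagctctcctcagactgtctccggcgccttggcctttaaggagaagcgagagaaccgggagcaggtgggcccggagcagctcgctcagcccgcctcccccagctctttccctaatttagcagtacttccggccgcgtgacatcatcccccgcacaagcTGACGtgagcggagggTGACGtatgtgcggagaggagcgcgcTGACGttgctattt
Dusp1: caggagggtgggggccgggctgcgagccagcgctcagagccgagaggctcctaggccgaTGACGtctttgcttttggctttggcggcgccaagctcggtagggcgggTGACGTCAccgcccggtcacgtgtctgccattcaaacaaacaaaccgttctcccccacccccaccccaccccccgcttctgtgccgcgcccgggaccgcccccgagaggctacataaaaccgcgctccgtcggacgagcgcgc

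The files are peak lists, so read depth is unknown, and each library's value is the share of bases in a window around the gene that lie under a peak, in percent. The window was the gene body plus 5 kb each side or the bases within 2 kb of either gene end. EGR1 libraries held 93858 and 98534 peaks for the label excitatory, against 49899 and 62412 for inhibitory. Fewer nuclei with a mark and less of it per nucleus cannot be told apart in such bulk libraries. The labels were checked against markers fixed as lists, and the EGR1 libraries went with them. EGR1 coverage near the ends of 8 excitatory markers averaged 12.1% and 11.6% in libraries labelled excitatory, against 2.28% and 4.38% in those labelled inhibitory. EGR1 coverage of 8 inhibitory markers averaged 1.66% and 1.37% in the libraries labelled excitatory, against 5.15% and 6.15% in those labelled inhibitory, and Gad1 and Slc32a1 were at 0 in both of those labelled excitatory. Some markers in the histone libraries went against them. H3K27ac coverage of the inhibitory markers averaged 5.51% and 6.07% in the libraries labelled excitatory, against 0.230% and 0.12% in those labelled inhibitory, with 7 of 7 tested markers higher and Slc32a1 at 0 in both labelled inhibitory. Excitatory markers under H3K27ac averaged 6.13% and 9.17% in the libraries labelled excitatory, against 5.58% and 7.01% in those labelled inhibitory. Under H3K4me3 the tested markers were divided. In the libraries labelled excitatory, 3 excitatory markers were higher and 4 lower, and 4 inhibitory markers went each way. The excitatory markers averaged 11.7% and 21.5% in the libraries labelled excitatory, against 18.7% and 20.8% in those labelled inhibitory. Of these, Tbr1 alone passed the test, lower in the libraries labelled excitatory (difference -30.0 points, limma adjusted p = 0.0139). Under H3K4me1 both lists were mostly higher in the libraries labelled excitatory, with 7 of 8 excitatory markers and 5 of 8 inhibitory markers higher. The excitatory markers averaged 20.5% and 25.3% in the libraries labelled excitatory, against 17.8% and 17.1% in those labelled inhibitory. The inhibitory markers averaged 16.3% and 23.4% in the libraries labelled excitatory, against 12.8% and 13.4% in those labelled inhibitory, and Gad1 among them passed the test (14.9 points, adjusted p = 0.0497). Directions in the histone libraries below are therefore those of the labels, and the part of these markers in the results was not tested. Markers of other cells had some coverage as well: H3K27ac coverage of 5 oligodendrocyte markers averaged 4.71% and 7.18% in the libraries labelled excitatory, against 2.26% and 3.28% in those labelled inhibitory. The medians of all tested genes in that window were 6.82% and 6.96% by class mean, so these averages do not show that such cells were present. Of the vascular markers, Cldn5 was higher under H3K4me1 and Vtn lower under H3K4me3 in the libraries labelled excitatory, and no astrocyte or microglia marker passed the test under any antibody.

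EGR1 peaks lay at the start of 6 of the 7 members with a listed start in both labelled classes. A peak touched the promoter in all 4 EGR1 libraries at 6 of the 14 member starts, 1 each for Npas4, Nr4a1, Nr4a2, Nr4a3, Homer1 and Dusp1. Of all 32619 promoters on the chromosomes used, 33.7% had such a peak. In the windows of gene body plus 5 kb, the members held 52 EGR1 regions, of which 17 (32.7%) had a peak in all 4 libraries, against 21.2% of the regions near any gene. A further 10 regions (19.2%) had a peak in both libraries labelled excitatory and in neither labelled inhibitory, against 18.5% for all genes. Only 1 region (1.92%) showed the opposite pattern, against 2.34% for all genes. Near the gene ends the order of the shared regions was the opposite, with 7 of 19 member regions (36.8%) in all 4 libraries, against 51.4% for all genes. When every list was cut to 49899 peaks, the regions found only in both libraries labelled excitatory numbered 2 of 37 (5.41%), against 10.8% for all genes.

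**Figure D1:**
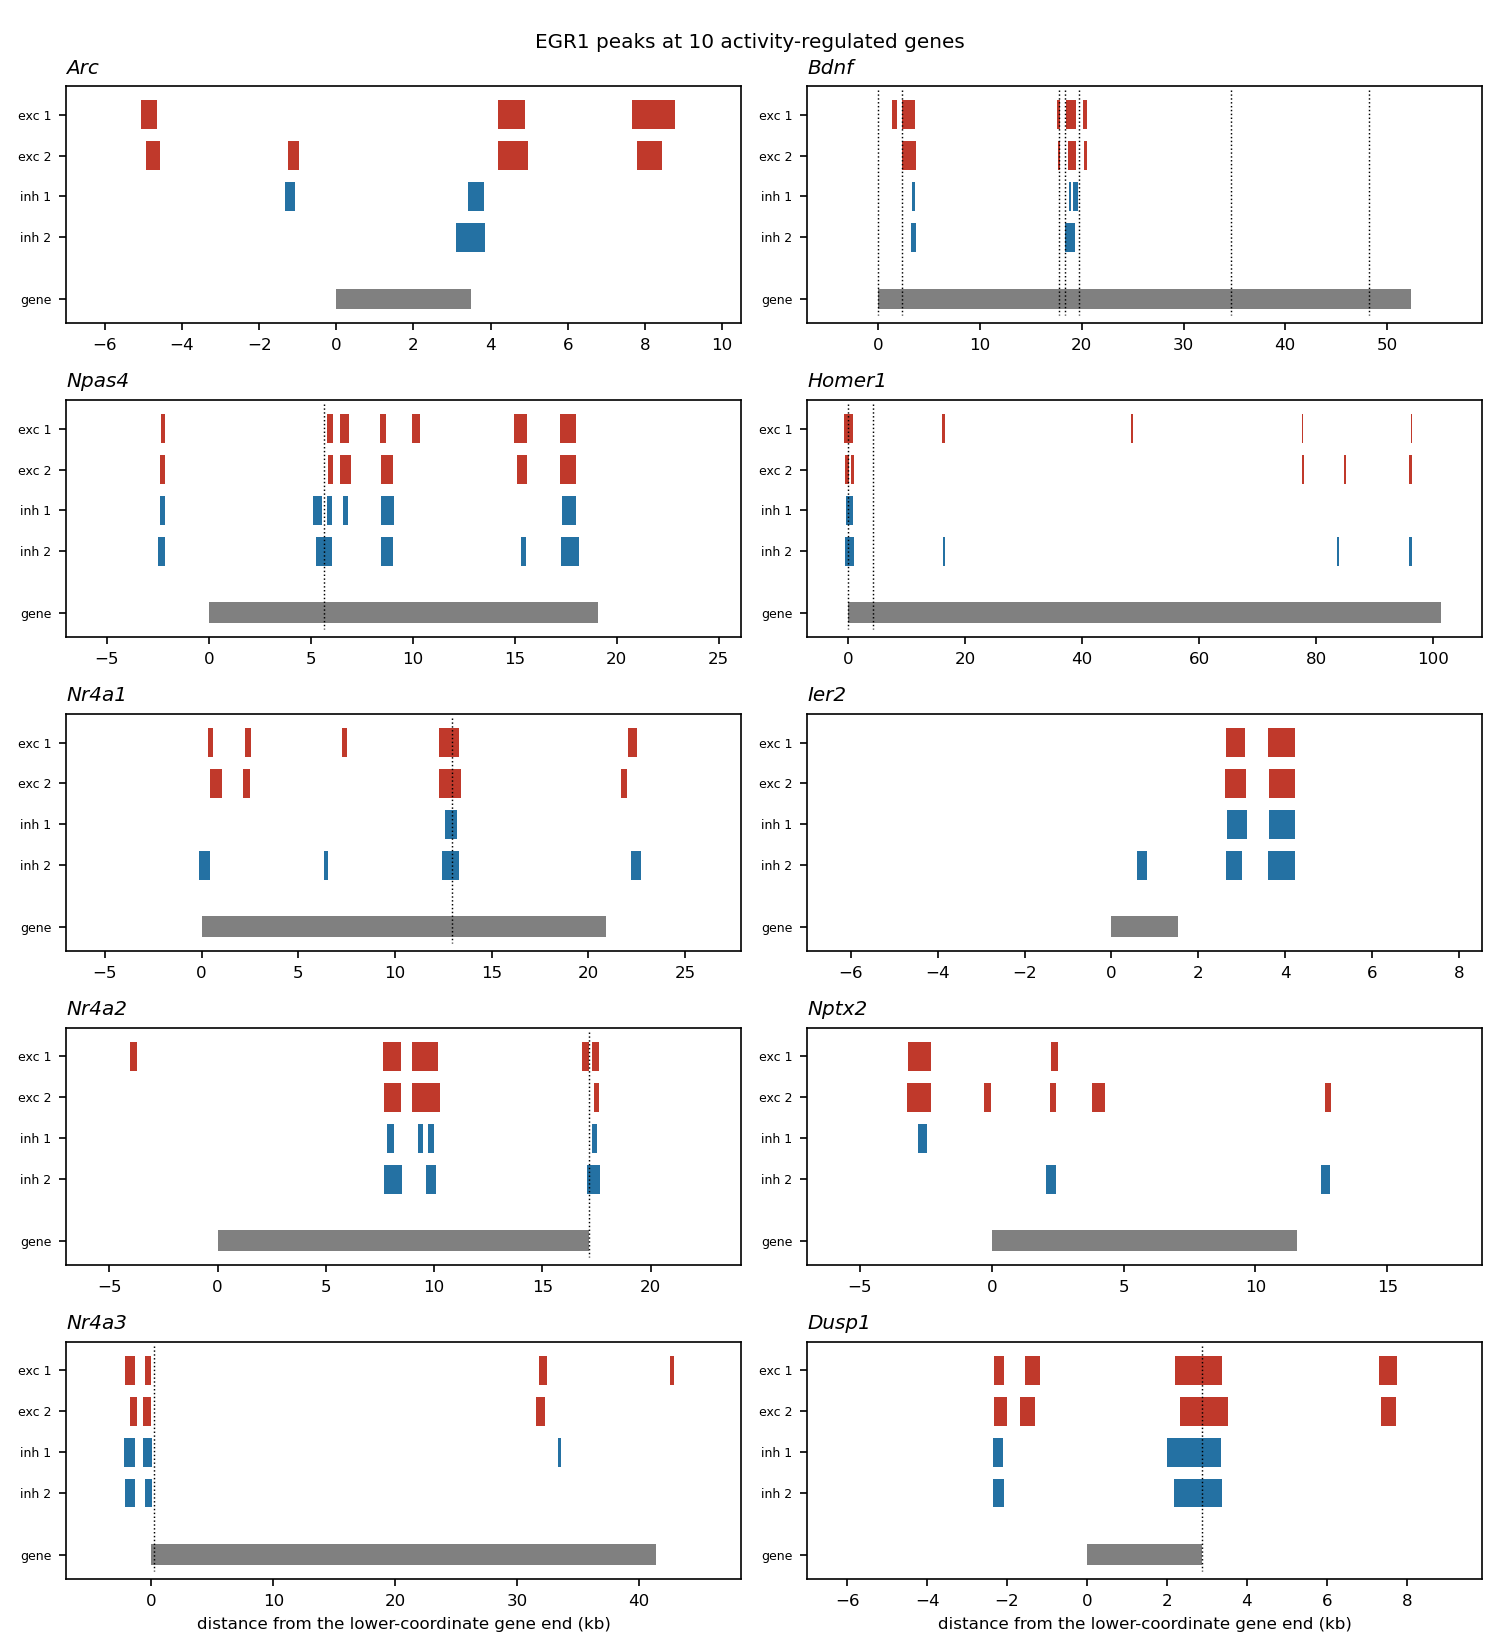
EGR1 peaks (bars) in the 4 libraries at each of the 10 genes, with the gene as a grey bar and the starts in the RefSeq promoter table as dotted lines; exc and inh mark libraries labelled excitatory (red) and inhibitory (blue). The x axis is distance from the gene's lower-coordinate end in kb. Peaks at the starts of Dusp1, Homer1 and Nr4a1 are present in all 4 rows, whereas Arc has no region shared by all 4.

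Among the transcription factor genes, Npas4 carried the strongest EGR1 peak of any member. The region at chr19:5001553-5002480 had a fold enrichment, as given by the authors for each peak, of 7.14 and 7.99 in the libraries labelled excitatory, against 9.31 and 8.23 in those labelled inhibitory. It lies inside the annotated gene, 11582 bp upstream of the start whose sequence is printed above. In the body window of Npas4, 4 of the 7 regions with EGR1 were shared by all 4 libraries and none was found in both libraries of 1 class only. The start of Nr4a1, which holds 1 EGR motif and 4 TGACG cores in the printed bases, had a peak with a fold of 4.38 and 4.55 in libraries labelled excitatory, against 4.83 and 5.20 in those labelled inhibitory. A region of Nr4a1 at chr15:101256025-101256439 was present only in both libraries labelled excitatory. The start of Nr4a2, which also holds 1 EGR motif, had peaks of fold 5.97 and 4.36 in libraries labelled excitatory, against 2.81 and 6.97 in those labelled inhibitory. Nr4a2 had 3 of its 4 regions in all 4 libraries and none in 1 class only. Nr4a3 had peaks in all 4 libraries just upstream of its start and at chr4:48042849-48043884, and its region found only in both libraries labelled excitatory lies deep in the gene, at chr4:48076644-48077509. That Nr4a3 region had a fold of 4.37 and 6.37.

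Among the effectors, Arc was the one member to pass the test of EGR1 coverage, in the window of gene body plus 5 kb. Over the body window EGR1 covered 14.01% and 15.1% in the libraries labelled excitatory, against 5.11% and 5.54% in those labelled inhibitory, and the classes did not overlap. The fitted difference was 6.67 ± 1.11 percentage points (SE; limma on quantile-normalized coverage, adjusted p = 0.0469), when 2.63% of 16404 genes passed. No EGR1 region of Arc was shared by all 4 libraries. The 3 regions found only in both libraries labelled excitatory were chr15:74664021-74664509, chr15:74673277-74674047 and chr15:74676737-74677858, all outside the gene body. The region found only in both libraries labelled inhibitory, chr15:74672178-74672924, overlaps the higher-coordinate end of the gene, and is the single such EGR1 region among all members. The Arc call is fragile: without any 1 of the 4 libraries the adjusted p was 0.135 to 0.193 with a difference of 6.08 to 7.26 points, and when every list was cut to its 49899 strongest peaks the difference was 4.35 points (adjusted p = 0.105). Near the gene ends, EGR1 covered 9.27% and 13.8% at Arc in the libraries labelled excitatory, against 9.20% and 9.97% in those labelled inhibitory, which overlap.

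Bdnf had EGR1 peaks of both kinds. Regions chr2:109676988-109678373 and chr2:109693064-109694292 had a peak in all 4 libraries, with folds of 4.72 and 4.50 in libraries labelled excitatory, against 4.64 and 8.00 in those labelled inhibitory, for the first. The region at the start at 109692436, chr2:109692308-109692598, was present only in libraries labelled excitatory, with folds of 3.23 and 2.82. It covered 59.3% and 43.0% of the promoter there, the one Bdnf promoter with a TGACG core, against 0% and 0% in libraries labelled inhibitory. The promoter of the start at 109677032, without a core, was also touched only in libraries labelled excitatory, by peaks of the first shared region. They covered 31.3% and 29.0% of it, against 0% and 0%. Homer1 had 1 region in all 4 libraries, chr13:93303132-93304712 over its first start, with folds of 3.75 and 3.90 in libraries labelled excitatory, against 4.49 and 5.08 in those labelled inhibitory. At 77.6 kb from that start, chr13:93381322-93381647 was present only in both libraries labelled excitatory. Nptx2 had no EGR1 region in all 4 libraries. Its widest, chr5:144542657-144543599, had a peak in 3 of them, with folds of 3.83 and 3.53 in the libraries labelled excitatory, against 3.37 in 1 labelled inhibitory.

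Dusp1 was the member with the most EGR1 coverage. Over its body window EGR1 covered 17.4% and 17.7% in the libraries labelled excitatory, against 12.5% and 11.4% in those labelled inhibitory, more than in 99.5% and 98.5% of tested genes by class mean. Its promoter was covered completely in all 4 libraries. Within 2 kb of the start alone the order was the reverse, with 29.4% and 29.6% in the libraries labelled excitatory, against 34.1% and 30.1% in those labelled inhibitory (-7.91 ± 3.91 points, limma adjusted p = 0.491). The peak at the start, chr17:26507590-26509112, had folds of 5.38 and 4.94 in libraries labelled excitatory, against 4.66 and 4.86 in those labelled inhibitory. Regions chr17:26503906-26504414 and chr17:26512901-26513354 were present only in both libraries labelled excitatory. Ier2 had 2 regions in all 4 libraries, chr8:84663937-84664442 and chr8:84664930-84665563, both beyond its higher-coordinate end, with folds between 3.61 and 5.29.

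In the fit of EGR1 coverage within 2 kb of the gene ends, no member passed an adjusted p of 0.05, and neither did any of the 14306 genes tested (0%; 2107 had an unadjusted p under 0.05). 9 members were tested, and Bdnf had too little coverage, with a value above 0 in 1 library (5.35%). The difference is taken after the libraries were given the same distribution of coverage, so it can have the opposite sign to the raw values. Before that step, 1 member, Dusp1, had both libraries labelled excitatory above both labelled inhibitory (22.4% and 23.0%, against 19.8% and 17.5%), where 47.4% of genes did, and none had the reverse, where 6.05% did. Over the gene body window 7 of 10 members were higher without overlap, against 63.3% of genes, and none was lower, against 3.71%.

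**Figure D2:**
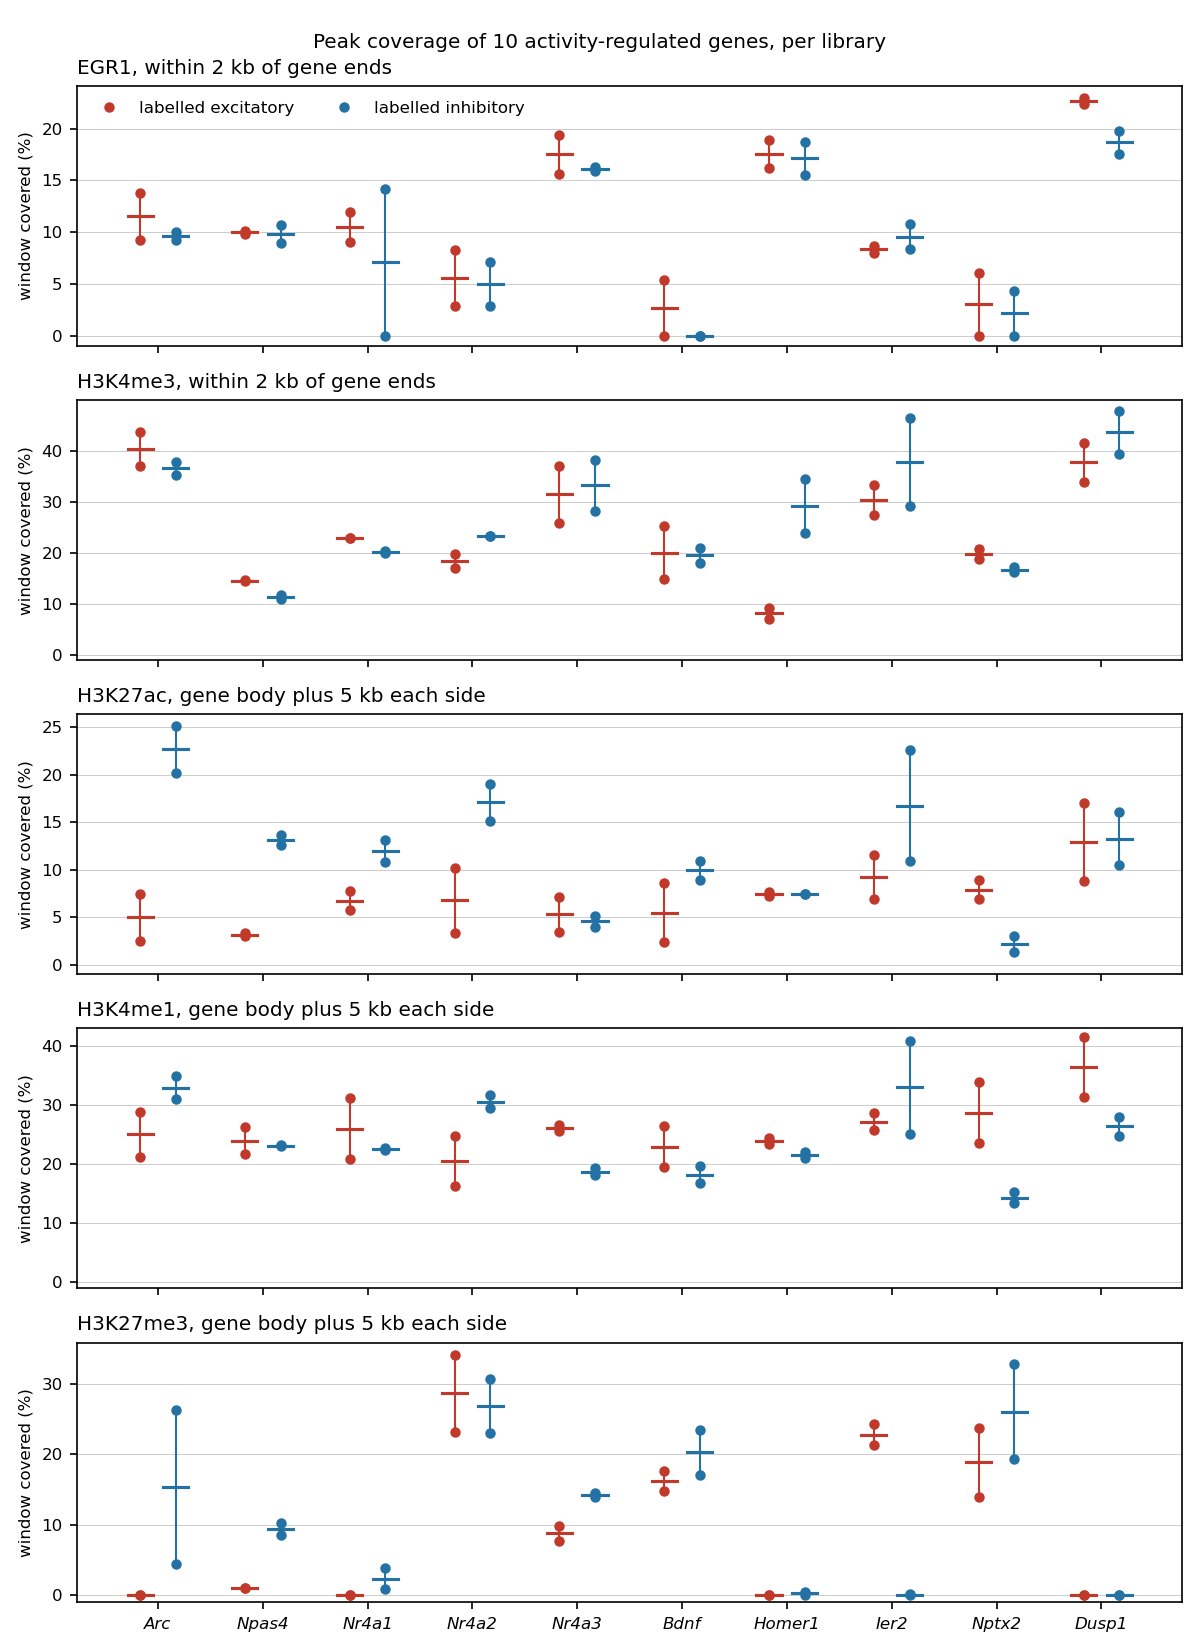
Percent of each gene's window covered by peaks, before normalization, for the 10 genes and 5 antibodies; each point is a library, red for labelled excitatory and blue for labelled inhibitory (n = 2 each), lines join the 2 libraries and bars give their mean. Homer1 stands out under H3K4me3, Arc and Npas4 under H3K27ac and Ier2 under H3K27me3, each with no overlap between the classes.

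H3K4me3 was present at all 10 members in both classes, and Homer1 was the only one whose coverage passed the test. Within 2 kb of the Homer1 ends H3K4me3 covered 7.07% and 9.22% in the libraries labelled excitatory, against 23.9% and 34.5% in those labelled inhibitory. The classes did not overlap, and the difference was -21.7 ± 3.32 points (SE; limma adjusted p = 0.0284). Of the 15681 genes tested 3.02% passed. Around the 2 Homer1 starts alone H3K4me3 covered 13.8% and 19.4% in the libraries labelled excitatory, against 35.2% and 40.2% in those labelled inhibitory (difference -22.9 ± 3.54 points, adjusted p = 0.0197), when 4.65% of 11885 genes passed in that window. The widest peak that began within 2 kb of the first start measured 954 and 650 bp in the libraries labelled excitatory, against 1220 and 3270 bp in those labelled inhibitory. Over the Homer1 gene body plus 5 kb, a window of which the start is a small share, the difference was -1.89 ± 0.823 points (adjusted p = 0.287). EGR1 did not follow this pattern at the same gene ends: it covered 18.9% and 16.2% in the libraries labelled excitatory, against 15.6% and 18.7% in those labelled inhibitory. Excitatory markers in the same libraries were divided, with 4 lower, Tbr1 among them, and 3 higher. Their part in the Homer1 difference was not tested. Without any 1 library the Homer1 difference was -26.4 to -16.8 points, with adjusted p of 0.226 to 0.488, so the call needs all 4.

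**Figure D3:**
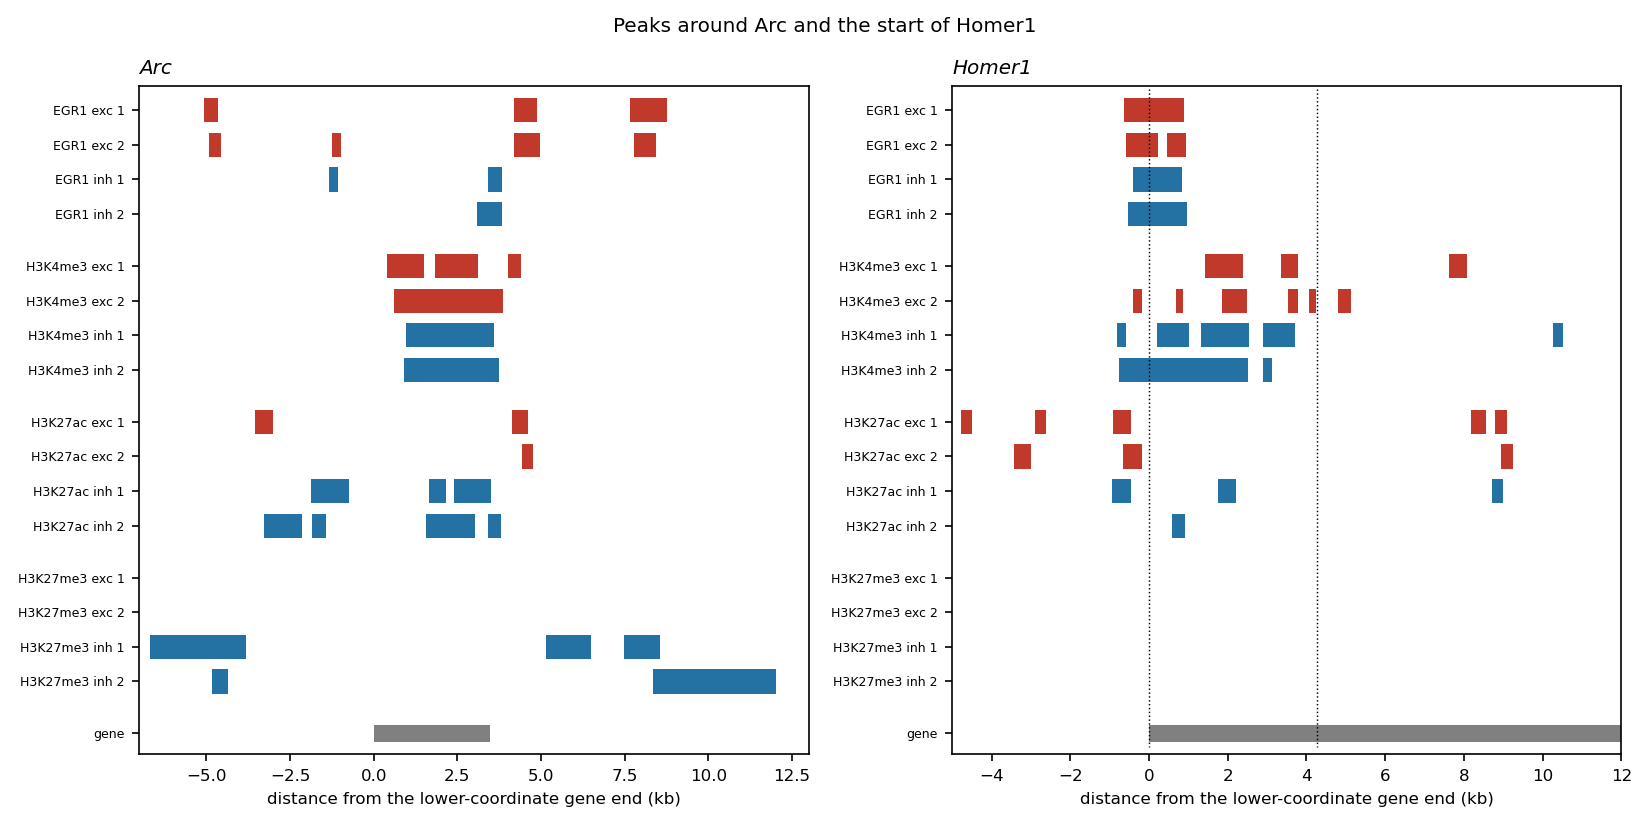
Peaks of EGR1, H3K4me3, H3K27ac and H3K27me3 around Arc and around the first start of Homer1, per library; exc and inh mark libraries labelled excitatory (red) and inhibitory (blue), the grey bar is the gene and dotted lines are starts in the RefSeq table. The x axis is distance from the gene's lower-coordinate end in kb; H3K4me3 peaks cover less of the first 2 kb after the Homer1 start in libraries labelled excitatory, and EGR1 peaks at that start are present in all 4.

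No other member passed the test under H3K4me3. Arc was covered over 37.0% and 43.6% of its end windows in the libraries labelled excitatory, against 35.3% and 37.9% in those labelled inhibitory, and Dusp1 over 34.0% and 41.5%, against 39.3% and 47.9%. Npas4, Nr4a1 and Nptx2 had both libraries labelled excitatory above both labelled inhibitory, by fitted differences of 2.23 to 2.59 points with adjusted p of 0.605 to 0.673; 25.6% of genes had that order. Nr4a2 and Homer1 had the reverse order, as had 20.3% of genes. At Nr4a2 H3K4me3 covered 17.1% and 19.8% in the libraries labelled excitatory, against 23.3% and 23.2% in those labelled inhibitory (difference -5.34 ± 2.08 points, adjusted p = 0.251). Over gene bodies, H3K4me3 coverage lay above the median of tested genes at 9 of 10 members in libraries labelled excitatory and at 10 of 10 in those labelled inhibitory; Homer1 was the exception. Near the gene ends, the window chosen for this mark, only 5 of 10 and 6 of 10 lay above it. Within 2 kb of listed starts 3 of 7 and 4 of 7 did. Of the 102 H3K4me3 regions near members, 21 (20.6%) had a peak in all 4 libraries, against 8.17% of regions near any gene; near the gene ends the shares were 39.4% and 38.6%.

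H3K27ac covered less of Arc and of Npas4 in the libraries labelled excitatory, without passing the test. At Arc it covered 7.43% and 2.51% of the body window in the libraries labelled excitatory, against 20.2% and 25.2% in those labelled inhibitory (difference -15.8 ± 3.29 points, limma adjusted p = 0.144). At Npas4 the values were 3.36% and 2.97% in the libraries labelled excitatory, against 12.6% and 13.7% in those labelled inhibitory (-9.40 ± 1.83 points, adjusted p = 0.144). Neither gene overlapped between classes. H3K27ac at the Npas4 start was found in both libraries labelled inhibitory and in neither labelled excitatory. No gene of 16650 passed (0%; 3039 at an unadjusted p under 0.05). Without the first library labelled excitatory 1287 genes passed, Arc (-20.6 points, adjusted p = 0.0413) and Npas4 (-11.2 points, adjusted p = 0.0413) among them; without the second 0 passed. Peak strength differed with the class: 2.57% and 4.94% of H3K27ac peaks had a q under 0.05 in the libraries labelled excitatory, against 31.8% and 35.1% in those labelled inhibitory. Among the peaks near members 0 of 48 and 5 of 66 did in the libraries labelled excitatory, against 20 of 54 and 19 of 59 in those labelled inhibitory. The part of this in the differences was not tested.

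Besides Arc and Npas4, Nr4a1, Nr4a2 and Bdnf had lower H3K27ac without overlap, 5 members in all, when 26.2% of genes had that order. At Nr4a2 H3K27ac covered 3.39% and 10.2% in the libraries labelled excitatory, against 19.1% and 15.1% in those labelled inhibitory (-8.35 ± 2.86 points, adjusted p = 0.225). At the Bdnf start at 109692436, where EGR1 peaks were found only in libraries labelled excitatory, H3K27ac covered 0% and 0% of the promoter in those libraries, against 100% and 100% in those labelled inhibitory. Nptx2 was the 1 member higher without overlap, with 8.92% and 6.87% in libraries labelled excitatory, against 1.35% and 3.03% in those labelled inhibitory (5.02 ± 2.2 points, adjusted p = 0.312); 24.9% of genes had that order. No H3K27ac peak near Nptx2 had a q under 0.05 in any of the 4 libraries. Homer1 had 7.24% and 7.63% in the libraries labelled excitatory, against 7.49% and 7.40% in those labelled inhibitory.

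Over the body window H3K4me1 covered every member, and each lay above the median of tested genes in both classes (medians 16.8% for the label excitatory and 13.4% for inhibitory). Near the gene ends 4 of 10 members lay above it for the label excitatory and 5 of 10 for inhibitory. No member passed the test, while 4.06% of 18013 genes did; 3 of 10 members had an unadjusted p under 0.05, as had 4672 of the 18013 genes. Nptx2 had 23.5% and 33.9% of its window covered in the libraries labelled excitatory, against 13.4% and 15.3% in those labelled inhibitory (12.7 ± 3.19 points, limma adjusted p = 0.0810). Near the Nptx2 ends alone the difference had the other sign, -15.7 ± 7.64 points (adjusted p = 0.278). An H3K4me1 region beside Nptx2, chr5:144541345-144544083, was found only in both libraries labelled excitatory and holds the gene's widest EGR1 region. Dusp1 had 31.4% and 41.6% covered in the libraries labelled excitatory, against 28.0% and 24.8% in those labelled inhibitory (10.2 ± 3.71 points, adjusted p = 0.159). Nr4a2 had the opposite order under H3K4me1, at 16.3% and 24.8% in the libraries labelled excitatory, against 29.6% and 31.6% in those labelled inhibitory (-11.4 ± 3.22 points, adjusted p = 0.0996). Higher without overlap were 4 members, Nptx2, Dusp1, Nr4a3 and Homer1, against 39.3% of genes, and lower were Arc and Nr4a2, against 15.3% of genes. Of the 350 H3K4me1 peaks near members only 9 had a q under 0.05, all in libraries labelled inhibitory. Of all H3K4me1 peaks, 0.00870% and 0.219% did in the libraries labelled excitatory, against 1.43% and 9.61% in those labelled inhibitory.

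**Figure D4:**
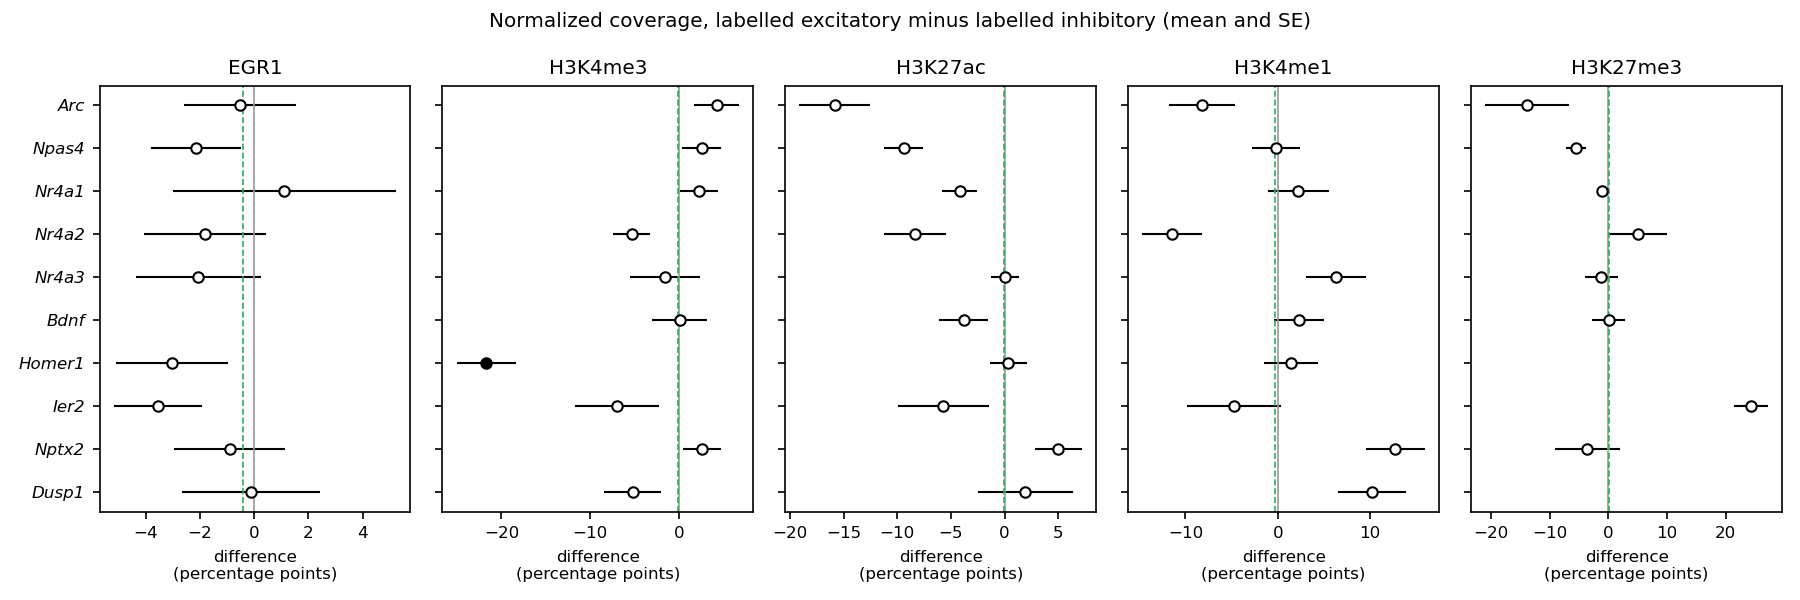
Difference in normalized coverage, labelled excitatory minus labelled inhibitory, for each gene and antibody in percentage points; points are limma estimates with SE bars (2 libraries against 2), filled where the adjusted p is under 0.05, and the dashed green line is the median of all tested genes. The filled point is Homer1 under H3K4me3 at -21.7; genes too rarely covered to be fitted have no point.

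H3K27me3 split the members, but on weak peaks: none of the 160 H3K27me3 peaks near members had a q under 0.05. Of all H3K27me3 peaks in a library, only 0.00488% to 0.00990% did, so this is not particular to the members. In the body window Nr4a2 was covered over 23.2% and 34.1% in the libraries labelled excitatory, against 23.0% and 30.7% in those labelled inhibitory, beside H3K4me3 and EGR1 peaks at its start in all 4 libraries of each. No H3K27me3 peak touched the Nr4a2 promoter itself in any library. Within 2 kb of that start the classes did not overlap, with 21.4% and 44.5%, against 7.40% and 5.65% (33.5 ± 10.9 points, limma adjusted p = 0.163). Of the genes tested in that window, 16.2% were higher without overlap. In the body window Bdnf (14.8% and 17.6%, against 23.5% and 17.1%) and Nptx2 (13.9% and 23.8%, against 32.8% and 19.3%) were likewise covered in both classes and overlapped. Near the Nptx2 ends the classes did not overlap, with 6.77% and 31.1%, against 47.9% and 33.9%, an order that 39.8% of genes tested there had. Dusp1 had no H3K27me3 peak in any library, and Homer1 had 0.532% in 1 library. Ier2 was covered over 24.3% and 21.3% in the libraries labelled excitatory, against 0.148% and 0% in those labelled inhibitory (24.3 ± 2.89 points, limma adjusted p = 0.0555). This was the largest difference of any member under any antibody in the windows chosen for each, and it missed the threshold. The widest H3K27me3 region there, chr8:84654717-84658145, straddles the edge of the window and had a peak in all 4 libraries, and the share of each peak inside the window differs. Within 2 kb of the Ier2 ends, which leaves that region out, H3K27me3 covered 17.8% and 9.18% in the libraries labelled excitatory, against 0% and 0% in those labelled inhibitory (16.2 ± 5.26 points, limma adjusted p = 0.173).

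At Arc H3K27me3 covered 0% and 0% of the body window in the libraries labelled excitatory, against 26.3% and 4.51% in those labelled inhibitory (difference -13.9 ± 7.11 points, limma adjusted p = 0.286). The strongest peak of each library labelled inhibitory straddles an edge of that window and lies outside the gene. Within 2 kb of the Arc ends the values were 0% and 0%, against 4.66% and 0%. At Npas4 H3K27me3 covered 1.01% and 1.01% in the libraries labelled excitatory, against 8.54% and 10.2% in those labelled inhibitory (-5.51 ± 1.78 points, adjusted p = 0.136). With Nr4a1 and Nr4a3, 4 of 8 tested members were lower without overlap, where 48.7% of genes were, and Ier2 alone was higher, where 14.2% were. No gene of 15436 passed (0%; 4456 at an unadjusted p under 0.05).

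Across the 20 libraries, the coverage of Nr4a1, Arc and Dusp1 followed the median of the members most closely, with Pearson correlations of 0.918, 0.890 and 0.881, and Nr4a2 (0.336) and Nptx2 (0.442) least. The 5 other genes most like the member median were Tbc1d2b (0.974), Cdk5rap2, Tbkbp1, 2410004B18Rik and Pitpnm3, when the median over 16840 genes was 0.663. The 20 libraries differ in antibody, and correlations within an antibody were not computed.

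Other genes of the activity response were described from lists. None of 16 tested activity-regulated transcription factor genes, such as Fos and Egr1, passed under EGR1, with a median difference of -2.01 points, against -0.43 for all genes. None of 28 tested other effectors passed under EGR1 either (median -0.11 points). Under H3K4me3, H3K27ac and H3K27me3 no gene of these 2 lists passed. Under H3K4me1, 3 of 29 effectors passed, against 4.06% of all genes, and without any 1 library no gene passed limma (0; 2945 to 4395 at an unadjusted p under 0.05). Vgf, a neuropeptide precursor, had 35.05% and 49.6% in the libraries labelled excitatory, against 4.23% and 8.17% in those labelled inhibitory (35.02 ± 3.90 points, limma adjusted p = 0.0401). Arl4d, a small GTPase, was higher by 12.9 ± 2.37 points (adjusted p = 0.0490), and Crh, the corticotropin-releasing hormone, was lower by a difference of -14.0 ± 2.64 points (adjusted p = 0.0497). Of 13 upstream regulators 1 passed, again under H3K4me1: Arnt2, a bHLH-PAS partner of NPAS4, at 15.6 ± 2.46 points (adjusted p = 0.0420). The H3K4me1 medians were 2.03 points for the effectors and -1.77 points for the regulators, against -0.34 for all genes.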

How the data were processed

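Peak lists of 20 CUT&RUN libraries (5 antibodies, 2 labelled neuron classes, 2 libraries each) were used as deposited, 1 list per library. Nuclei were sorted by flow cytometry and libraries made with the CUTANA CUT&RUN and NEBNext Ultra II kits, per the labels' protocols. The submitters' processing notes name MACS2 2.2.5, SAMtools 1.12, Picard 2.25.0, Bowtie2 2.3.5, Trim Galore 0.5.0 and cutadapt 1.18, with the build mm10; neither settings nor a control are given in the sources used here. Each deposited peak has a fold enrichment (a ratio), a −log10 p-value, a −log10 q-value and a score, as the authors' peak caller wrote them. The lists hold no counts, so depth is unknown and no counting interval is given. The weakest deposited p was 0.00491 for EGR1, 0.0495 for H3K4me3, 0.0498 for H3K27ac, 0.0998 for H3K4me1 and 0.0999 for H3K27me3. Peak names inside the EGR1 lists carry replicate numbers 3 and 4 where the labels give 1 and 2; the labels were used.

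Positions are 1-based on mm10, and genes came from RefSeq GRCm38.p6. The percent of each gene's window lying under peaks was computed for every library: within 2 kb of either gene end for EGR1 and H3K4me3, the gene body plus 5 kb each side for the others, and, as an alternative, within 2 kb of starts in the RefSeq promoter table, which lists 7 of the 10 members. The 4 libraries of an antibody were quantile-normalized, and limma 3.58.1 (R 4.3.3, eBayes with trend) was fitted, for all genes with at least 1 covered base in 2 libraries, with Benjamini-Hochberg adjustment over all genes and a two-sided threshold of 0.05. The fit was tested on simulated data. Printed percentages are before normalization, and differences are labelled excitatory minus labelled inhibitory after it. Overlapping peaks of an antibody's 4 libraries were merged into regions. The Npas4 and Nr4a1 annotations extend past their starts in the promoter table, so the gene end window leaves those starts out. The body window of Nr4a2 holds 1 other coding gene.

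The genes described, the lists and the tests were chosen with earlier results of these data known. All members are named; from the other lists, up to 3 genes per antibody and direction with the largest difference past the threshold are named. Alternatives were another window, normalization, filter, scale or peak threshold, the replicate number as a block, and leaving out each library. Sequences are RefSeq's. Some marker genes are not reported here.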

Additional observations from a re-analysis of the deposited data

How the results depend on the processing

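Of 563 values under other settings of the members' differences, 499 kept their direction, their side of the threshold and, where untested, their size; 47 moved, 9 lost and 7 gained a call, and 1 changed sign with a call: Arc under EGR1, with 6.67 points over the gene body window in place of -0.52 near the gene ends. Differences with no call also changed sign between these windows, under EGR1 for Nr4a2 (2.36 and -1.82), Nptx2 (3.17 and -0.91) and Dusp1 (2.3 and -0.12), and under H3K4me1 for Nptx2 (12.7 and -15.7), among others. The causes were not tested.

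Genes passing an adjusted p of 0.05 in limma varied more. Under EGR1 0 passed, with 53 without the coverage filter and 432 in the gene body window, where 1 member, Arc, passed. Under H3K4me3 474 passed, with 0 without normalization (2343 at an unadjusted p under 0.05), 0 without the filter (2562), 0 on the log2 scale (2769), 303 when covered in all 4 libraries and 111 in the gene body window. Homer1, the 1 member called, was lost in each of these but the requirement for all 4 libraries, leaving 0, and also when weaker peaks, with −log10 p under 3, were dropped. Under H3K27ac 0 passed, and 16 without the filter. Under H3K4me1 732 passed, with 1212 without normalization, 20 without the filter, 219 near the gene ends, 291 on the log2 scale, and 0 near starts (1808 unadjusted), with strong peaks (540) and with equal numbers of peaks (3907). Under H3K27me3 0 passed, with 1169 when covered in all 4 libraries (1 member, Npas4) and 1031 on the log2 scale (1 member, Ier2). Leaving out each library gave 0 to 0 genes for H3K4me3 and H3K4me1, 0 to 1287 for H3K27ac, and 0 to 2 H3K27ac members and 0 to 0 H3K4me3 members.

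With the replicate number as a block, 1232 genes passed under H3K4me3, 1329 under H3K27ac with 3 members (Arc, Npas4 and Nr4a2) and 0 under H3K4me1 (4774 at an unadjusted p under 0.05). For each antibody, the deviation of library 1 from its class mean was correlated across genes between the 2 classes. These correlations of deviations, not of the libraries themselves, were -0.0170 to 0.0595, so the numbers are not shown to pair the libraries. Further alternatives for Arc under EGR1 over the gene body were chosen after seeing the data; its adjusted p was 0.0734 with the block, 0.0827 without the filter and 0.0579 when covered in all 4 libraries.

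Regions near members moved as follows. Near gene ends only, regions in all 4 libraries numbered 7 of 19 for EGR1 (36.8%, against 51.4% for all genes) and 13 of 33 for H3K4me3 (39.4%, against 38.6%). They numbered 5 of 32 for H3K27ac (15.6%, against 22.4%), 13 of 31 for H3K4me1 (41.9%, against 32.3%) and 4 of 23 for H3K27me3 (17.4%, against 22.2%). In the same order of antibodies, those only in libraries labelled excitatory numbered 2, 0, 1, 1 and 0. The shares for all genes were 9.80%, 2.39%, 4.78%, 9.34% and 3.86%. Those only in libraries labelled inhibitory numbered 1, 0, 2, 0 and 1, where the shares for all genes were 1.44%, 2.21%, 3.83%, 2.57% and 6.95%. With strong peaks only, those in all 4 numbered 3 for H3K27ac, 0 for H3K4me1 and 0 for H3K27me3, those only in libraries labelled excitatory 0 for each histone mark, and those only in libraries labelled inhibitory 2 for H3K4me1 and 0 for H3K27me3. With equal numbers of peaks, those in all 4 were 6 of 108 for H3K27ac (5.56%, against 7.07% for all genes) and 14 of 103 for H3K4me1 (13.6%, against 12.9%). Those only in excitatory were 2 of 37 for EGR1, 0 of 78 for H3K4me3, 0 of 108 for H3K27ac and 3 of 103 for H3K4me1. The shares for all genes were 10.8%, 2.50%, 3.84% and 6.88%. Those only in inhibitory were 13 of 103 for H3K4me1 (12.6%, against 9.64%) and 4 of 75 for H3K27me3 (5.33%, against 6.78%). Requiring 25% of a region to be covered left 20 of 142 H3K4me1 regions in all 4 (14.1%, against 13.1% for all genes) and 7 only in inhibitory (4.93%, against 3.93%). It left 1 of 84 H3K27me3 regions only in excitatory (1.19%, against 4.58%). Depth could not be assessed.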
